A study of Homo sapiens with 4 samples.

Results

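The E2 ubiquitin-conjugating enzymes were taken as the genes whose name begins with UBE2 followed by a letter, which gave 36 of the 16057 genes in the deposited table. They were followed in MM.1S cells, a long-established line from human multiple myeloma, the cancer of antibody-secreting plasma cells. Cells received 350 nM JG342, which inhibits the chaperone HSP70 at an allosteric site, or the solvent DMSO alone, and were collected after 26 h. Both treatments were done in biological replicates numbered 1 and 2, so that 4 RNA sequencing libraries were compared, all from this 1 line. Values are TPM, transcript levels scaled to a common library total and corrected for transcript length, so levels can be compared between genes. The comparison asks which E2 transcripts differ in level when HSP70 is inhibited.

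Ubiquitin is attached to proteins in a relay. An E1 enzyme activates it, an E2 enzyme carries it on a catalytic cysteine, and an E3 ligase brings the loaded E2 to the substrate. The E2 often sets which kind of ubiquitin chain is made, and some E2s carry related modifiers such as SUMO, NEDD8 or ISG15 in place of ubiquitin. Myeloma cells make large amounts of immunoglobulin and rely on ubiquitin-dependent degradation of misfolded secretory proteins, and proteasome inhibitors are standard drugs in this disease.

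The libraries carried plasma cell transcripts and differed in proliferation genes between treatments. Of the 9 plasma cell markers, CD38 was the lowest, at 22.04 to 29.19 TPM over the 4 libraries, PRDM1 stood at 154.02 to 220.17 TPM, and the other 7 were at 243.33 TPM (SDC1) or above in each library. IRF4 and PRDM1 passed as higher and JCHAIN and TNFRSF17 as lower in limma, where 10.8% and 7.62% of all tested genes passed. With a replicate block 3 markers were higher and 3 lower, against 19.2% and 15.7% of all tested genes. The markers summed to 14836 and 14570 TPM in DMSO against 10667 and 10029 TPM in JG342, a fall carried by JCHAIN, which went from 9907.16 and 10383.46 TPM to 5731.52 and 5430.98 TPM. The 8 others summed to 4928 and 4187 TPM in DMSO and to 4936 and 4598 TPM in JG342. Summed levels of the marker lists for other cells lay between 9.82 and 14.8 TPM (T cell), 37.4 and 46.2 TPM (monocyte, of which LYZ held 36.96 to 46.16 TPM) and 4.61 and 8.69 TPM (epithelial and stromal), with CD14 at or below 0.99 TPM, CD4 at or below 0.08 TPM and COL1A2 at or below 0.04 TPM. The T cell sum was nearly all CD3E and CD3G, which differed in opposite directions. CD3E went from 5.49 and 7.7 TPM in DMSO to 5.26 and 3.21 TPM in JG342 (limma adjusted p 0.132, and 0.00753 with the replicate block). CD3G went from 3.99 and 5.1 TPM to 9.34 and 7.92 TPM (limma adjusted p 0.0152), a call lost without DMSO replicate 1 or JG342 replicate 1. With the block, 1 T cell marker passed as higher and 1 as lower. The epithelial and stromal sum was mostly KRT8 and KRT18, the latter at 1.24 to 2.9 TPM. KRT8 went from 2.27 and 3.26 TPM in DMSO to 3.18 and 5.66 TPM in JG342. It passed as higher only with the block (limma adjusted p 0.200, and 0.0282 with the replicate block). All 20 proliferation markers had lower levels after JG342 without overlap between treatments, as had 28.2% of all tested genes. Their summed levels were 4120 and 4707 TPM in DMSO replicates 1 and 2 against 2633 and 3018 TPM in JG342 replicates 1 and 2. In bulk RNA, fewer dividing cells and less RNA per dividing cell cannot be told apart.

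RefSeq promoter windows were matched by symbol for 26 of the 36 members, and the 250 bases before the annotated start are printed for 4 of them. UBE2S and UBE2T belong to the mitotic and repair subgroup, and UBE2QL1 and UBE2Z are the members with the largest rises. UBE2C, also of that subgroup, had no window. Capitals mark matches to the motifs searched, and sequences run 5′ to 3′ on the gene's strand.
UBE2S (GRCh38.p14 chr19:55407789-55408038, minus strand): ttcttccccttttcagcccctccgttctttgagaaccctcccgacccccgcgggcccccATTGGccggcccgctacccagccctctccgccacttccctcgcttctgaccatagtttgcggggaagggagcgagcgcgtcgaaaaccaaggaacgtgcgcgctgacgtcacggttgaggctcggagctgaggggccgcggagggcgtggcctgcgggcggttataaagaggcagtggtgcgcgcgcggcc
UBE2T (GRCh38.p14 chr1:202341937-202342186, minus strand): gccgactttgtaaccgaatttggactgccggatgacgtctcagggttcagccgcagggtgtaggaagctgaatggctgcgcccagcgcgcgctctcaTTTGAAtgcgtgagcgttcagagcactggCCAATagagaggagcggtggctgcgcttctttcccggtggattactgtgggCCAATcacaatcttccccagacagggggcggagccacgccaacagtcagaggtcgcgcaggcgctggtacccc
UBE2QL1 (GRCh38.p14 chr5:6448609-6448858, plus strand): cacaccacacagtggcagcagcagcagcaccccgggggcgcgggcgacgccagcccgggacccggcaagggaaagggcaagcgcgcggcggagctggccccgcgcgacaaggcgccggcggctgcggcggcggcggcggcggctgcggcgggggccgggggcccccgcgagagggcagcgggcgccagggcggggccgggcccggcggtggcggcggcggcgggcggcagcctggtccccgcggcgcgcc
UBE2Z (GRCh38.p14 chr17:48908157-48908406, plus strand): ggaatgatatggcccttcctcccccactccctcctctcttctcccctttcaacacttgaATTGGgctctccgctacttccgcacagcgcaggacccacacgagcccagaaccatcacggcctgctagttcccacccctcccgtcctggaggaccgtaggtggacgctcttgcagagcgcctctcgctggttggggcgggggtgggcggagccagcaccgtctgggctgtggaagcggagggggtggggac
The motifs were searched on both strands. They were the CHR element of cell-cycle genes (TTTGAA or TTCGAA), the CCAAT box (CCAAT), an E2F site (TTTCCCGC or TTTGGCGC), the CARE site of ATF4 and CHOP (TGATGNAA), the endoplasmic reticulum stress element (a CCAAT box, 9 bases of any kind, then CCACG) and the heat shock element (GAA, TTC and GAA, or TTC, GAA and TTC, each 2 bases apart). The UBE2T window held a CHR match 153 bases before the start and CCAAT boxes 124 and 73 bases before it. UBE2S and UBE2Z each held a single CCAAT box, in both cases 191 bases before the start, and UBE2QL1 held none of the motifs in a window of 85.6% GC. The windows of UBE2L3, UBE2N and UBE2R2, which are not printed, also held none of the motifs. Across the family the CHR motif occurred in 2 of 26 windows (UBE2F and UBE2T), against 14.3% of 35116 windows of all genes. The CCAAT box occurred in 8 of 26, against 32% of all windows. No member's window held the E2F, CARE, endoplasmic reticulum stress or heat shock motif, which occurred in 1.93%, 3.14%, 0.074% and 0.441% of all windows.

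E2 transcripts covered a wide range of levels in DMSO-treated cells, led by an enzyme of the endoplasmic reticulum. UBE2J1, a membrane-anchored E2 that works in the degradation of misfolded endoplasmic reticulum proteins, was the highest, at 425.51 and 424.1 TPM in the DMSO libraries. It was followed by the mitotic E2 UBE2S (mean 341 TPM), the broad-range E2 UBE2E1 (259 TPM), the mitotic E2 UBE2C (236 TPM) and the NEDD8-conjugating UBE2M (230 TPM). These 5 genes held 36.5% and 36.3% of the summed E2 level in DMSO and 34.5% and 35.6% after JG342. In all, 18 members had a DMSO mean above 100 TPM and 4 had one under 10 TPM, namely UBE2W, UBE2L5, UBE2Q2L and UBE2NL. In this order the DMSO values of 16 neighbouring pairs overlapped, for example UBE2C with UBE2M and UBE2D3 with UBE2V1, and those of 19 pairs did not. The whole family summed to 3974 and 4221 TPM in DMSO (0.400% and 0.424% of the library total) and to 3884 and 3911 TPM after JG342 (0.390% and 0.393%).

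**Figure D1:**
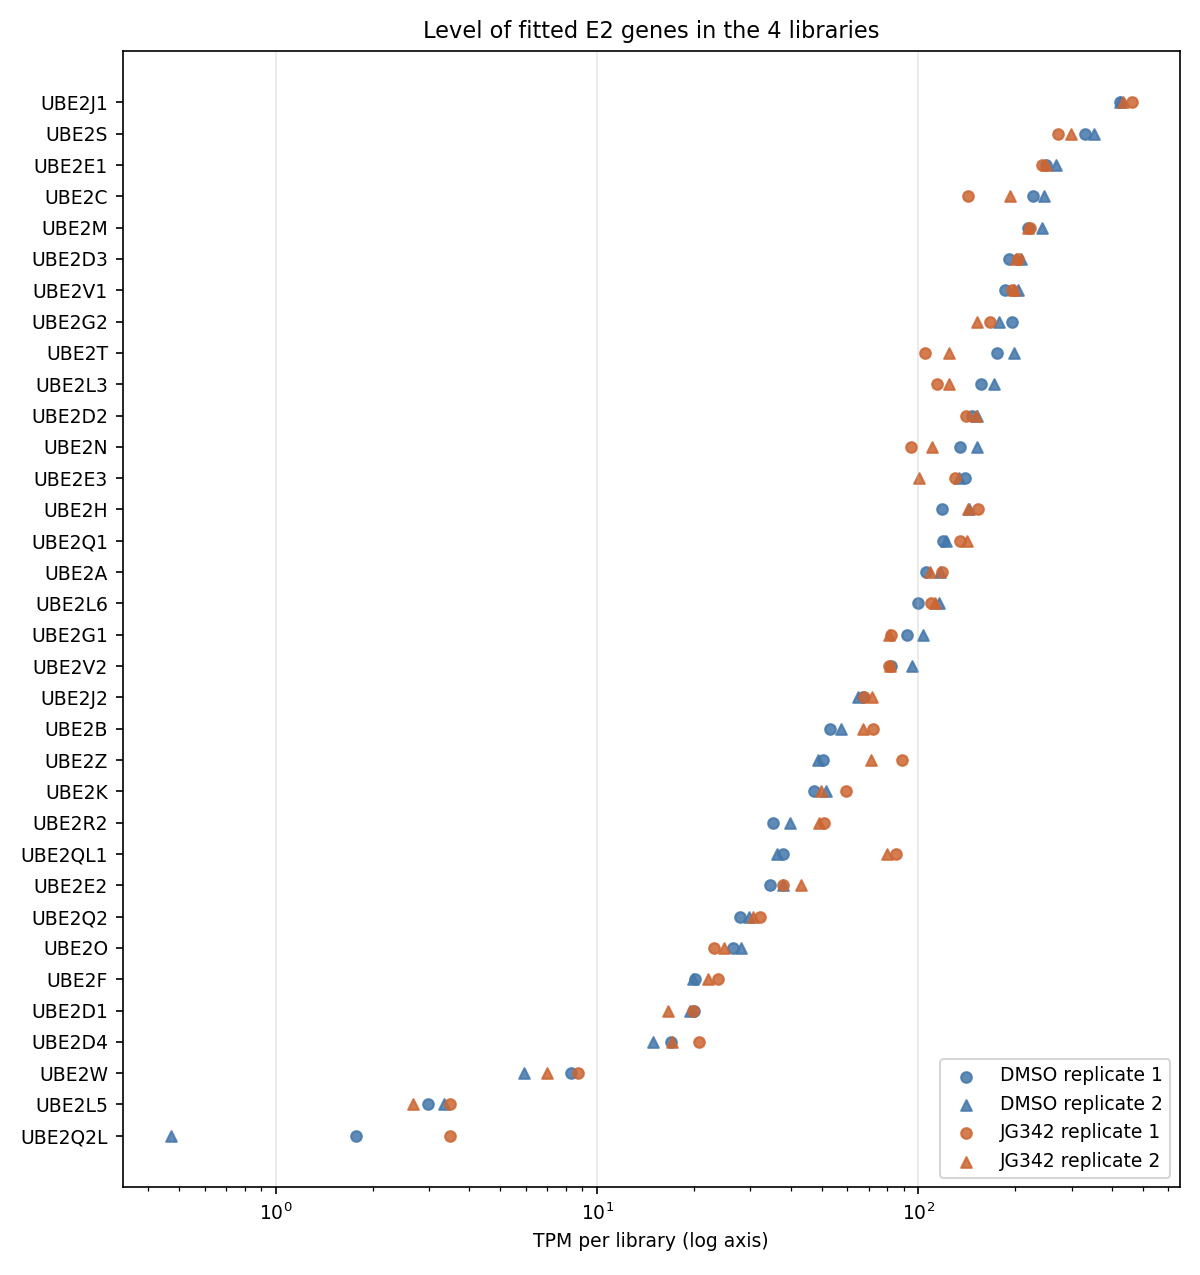
TPM of the fitted E2 genes but 1 (from top to bottom by DMSO mean) in each library on a log axis, with circles for replicate 1 and triangles for replicate 2. UBE2QL1 and UBE2Z stand to the right in JG342 and UBE2T, UBE2N and UBE2L3 to the left, while UBE2Q2L, listed at 0 in JG342 replicate 2, has 3 points.

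Of the 36 members, 35 averaged 1 TPM or more across all libraries and were tested. UBE2Q2L, with a mean of 1.43 TPM, lay just inside this limit, and UBE2NL, with a mean of 0.263 TPM, lay outside it. JG342 raised 3 members (UBE2QL1, UBE2Z and UBE2R2) and lowered 4 (UBE2T, UBE2C, UBE2N and UBE2L3) at an adjusted p under 0.05 in limma, fitted and adjusted over all 12042 tested genes. Higher members made up 8.57% of those tested and lower members 11.4%, against 10.8% and 7.62% of all tested genes (18.4% in either direction). These shares are near those of all genes and are no result about the family as a whole. The median log2 fold change of the members was 0.02, beside 0.03 over all tested genes, and their median absolute change of 0.15 lay below the 0.22 of all genes. At an unadjusted p under 0.05 in limma stood 10 members, or 28.6% against 33.6% of all genes. Treatment values did not overlap for 20 members, 10 higher and 10 lower, or 57.1% against 62.1% of all genes (34.0% higher and 28.2% lower). A fit with a replicate block gave 4 members as higher and 8 as lower (34.3% of members against 34.9% of all genes, 19.2% higher and 15.7% lower). The members added were UBE2B as higher and UBE2S, UBE2G1, UBE2G2 and UBE2E3 as lower, in a fit with 1 residual degree of freedom. Its prior degrees of freedom were infinite, so its p-values rest on an error shared across genes, not on each gene's own spread. The same 12 passed with the block and median scaling together, where 33.1% of all genes passed (13.9% higher and 19.2% lower). Median scaling alone gave 2 higher and 3 lower members, against 8.02% and 9.97% of all genes (18.0% in either direction). Without DMSO replicate 2, 1 member passed in each direction, and without JG342 replicate 1 the lower count was 2. Without the filter on low values 1 passed in each direction as well.

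**Figure D2:**
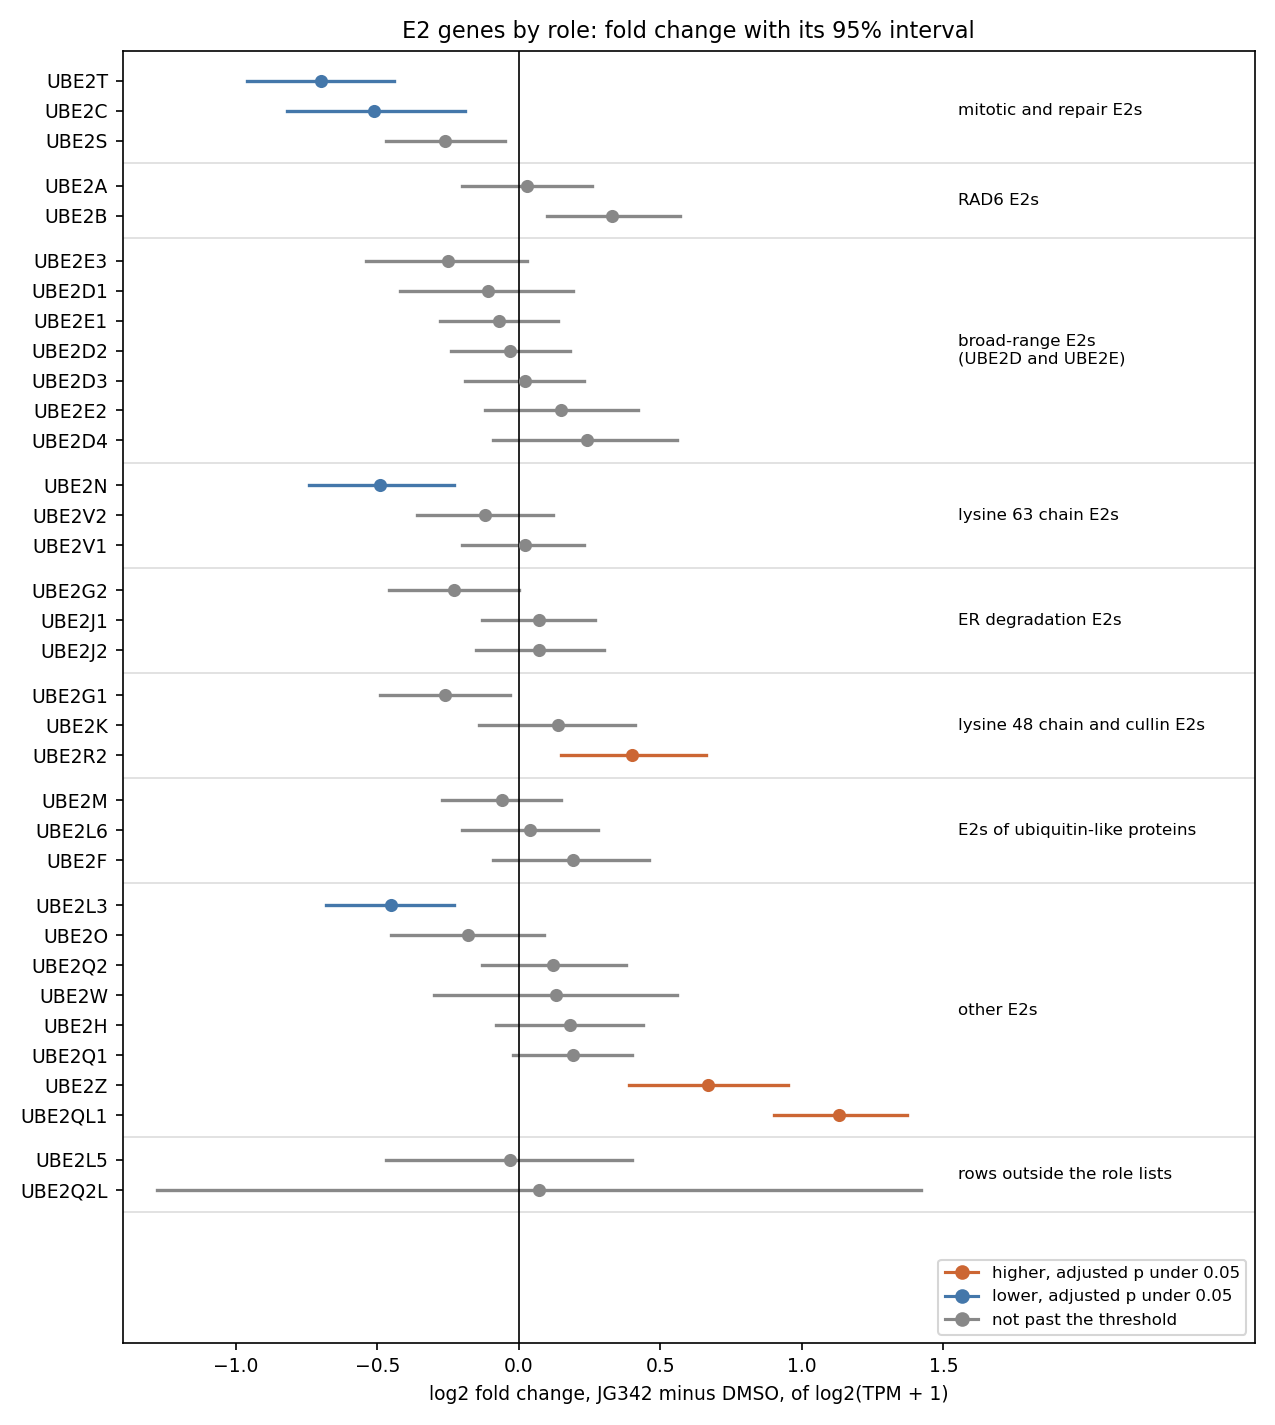
Log2 fold change (JG342 minus DMSO, of log2(TPM + 1)) of the fitted E2 genes but 1, with its 95% interval, grouped by role; colour marks genes past an adjusted p of 0.05. The 3 mitotic and repair genes all lie below 0, from −0.70 (UBE2T) to −0.26 (UBE2S), and UBE2QL1 lies farthest to the right at 1.13.

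The mitotic and repair E2s were lower after JG342, and 2 of the 3 passed the test as lower, against 7.62% of all tested genes. UBE2T, the E2 of the Fanconi ligase that ubiquitinates FANCD2 and FANCI at DNA crosslinks, stood at 175.17 and 198.25 TPM in DMSO replicates 1 and 2 and at 105.04 and 124.66 TPM in JG342 replicates 1 and 2. The JG342 libraries lay well below both DMSO libraries. Its log2 fold change was −0.70 ± 0.12 (SE, n = 2 libraries per treatment; limma adjusted p 0.00519), a fall to 0.615 of the DMSO mean, and it ranked 224 from the bottom of 12042 genes. UBE2C, which starts ubiquitin chains on substrates of the anaphase-promoting complex, stood at 227.02 and 245.48 TPM in DMSO and at 142.48 and 193.31 TPM in JG342. The groups did not overlap, and JG342 replicate 2 was closer to DMSO than replicate 1 was. Its log2 fold change was −0.51 ± 0.14 (limma adjusted p 0.0364). UBE2C lost its call without DMSO replicate 1, DMSO replicate 2 or JG342 replicate 1 (limma adjusted p 0.0910, 0.181 and 0.147), and without JG342 replicate 1 its fold change was −0.29. It also missed the threshold after median scaling (limma adjusted p 0.0516), after quantile normalization (0.0732), without the mean-variance trend (0.0993) and without the filter on low values (0.136).

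UBE2S, which extends those chains with K11 linkages, did not pass. Its levels were 330.9 and 351.52 TPM in DMSO and 271.96 and 297.65 TPM in JG342, with no overlap. The log2 fold change was −0.26 ± 0.09 (limma adjusted p 0.0872; 0.00559 with the replicate block). The pseudogene UBE2SP1 matches the UBE2S transcript at 98.8% identity over 26.3% of its length, so reads could be shared. The summed level of the 3 genes was 733 and 795 TPM in DMSO against 519 and 616 TPM in JG342. These lower levels went with those of the 20 proliferation markers, which had a median of −0.62. With the block 20 were lower and 0 higher, against 15.7% and 19.2% of all genes. At an unadjusted p under 0.05 in limma 0 were higher. After adjustment in limma none passed as higher and 16 of 20 as lower, against 10.8% and 7.62% of all genes. That count was 7 without DMSO replicate 2 and 10 without JG342 replicate 1. RRM2, a subunit of ribonucleotide reductase, fell from 878.28 and 987.39 TPM to 457.9 and 465.69 TPM (−1.01 ± 0.09, limma adjusted p 0.000357). MKI67 (Ki-67) fell from 153.3 and 171.31 TPM to 93.18 and 99.77 TPM (−0.74 ± 0.10, limma adjusted p 0.00233). The part of proliferation in the UBE2T, UBE2C and UBE2S values was not tested.

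The lists of anaphase-promoting complex and Fanconi genes, which hold ligase parts with substrates and regulators, showed smaller median differences than the 3 E2s. Of all tested genes, 10.8% passed as higher and 7.62% as lower in limma (19.2% and 15.7% with the replicate block). Of the 17 anaphase-promoting complex genes, 1 passed as higher and 1 as lower (1 and 2 with the replicate block), with a median of −0.09. ANAPC16, a small subunit, went from 77.84 and 82.51 TPM to 113.98 and 115.94 TPM (log2 fold change 0.52 ± 0.10, limma adjusted p 0.00842), although without DMSO replicate 1 its limma adjusted p was 0.0588. FBXO5, the inhibitor of the complex also called EMI1, went from 44.15 and 41.14 TPM to 26.96 and 30.65 TPM (−0.55 ± 0.12, limma adjusted p 0.0139), and lost its call without DMSO replicate 1, DMSO replicate 2 or JG342 replicate 1 (limma adjusted p 0.0915, 0.0646 and 0.0552). Of the 15 Fanconi genes, 1 passed as higher and 2 as lower (2 and 5 with the replicate block), with a median of −0.16. These counts moved with the scaling, to 0 and 4 after median scaling, 0 and 5 after quantile normalization and 1 and 7 with the block and median scaling, and both were 0 without DMSO replicate 2. FANCI, a substrate of UBE2T, fell from 97.35 and 109.57 TPM to 68.62 and 73.34 TPM (−0.54 ± 0.11, limma adjusted p 0.0102; 0.0919 without DMSO replicate 2). FAAP20 rose from 62.32 and 47.7 TPM to 72.09 and 83.08 TPM (0.50 ± 0.14, limma adjusted p 0.0408), and its call was lost without DMSO replicate 2 or JG342 replicate 2 (limma adjusted p 0.258 and 0.131). FANCL, the ligase partner of UBE2T, was picked after its values were seen. It stood at 44.48 and 37.87 TPM in DMSO and 38.78 and 38.12 TPM in JG342, which overlap.

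The largest change of any member was the rise of UBE2QL1, a little-studied relative of the UBE2Q enzymes. It stood at 37.81 and 36.28 TPM in DMSO and at 84.95 and 80.01 TPM in JG342. Replicates lay close together and the treatments far apart. The mean rose 2.23-fold, with a log2 fold change of 1.13 ± 0.10 (SE, n = 2 per treatment; limma adjusted p 0.000308), and the gene ranked 199 from the top of 12042. Its relatives UBE2Q1 and UBE2Q2 had log2 fold changes of 0.19 ± 0.09 and 0.12 ± 0.11 (limma adjusted p 0.183 and 0.480). UBE2Q1 stood at 119.28 and 121.78 TPM in DMSO and at 134.45 and 141.27 TPM in JG342.

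UBE2Z and UBE2R2 also rose. UBE2Z, an E2 loaded by the alternative E1 enzyme UBA6 and able to carry the modifier FAT10, went from 50.53 and 48.74 TPM to 88.9 and 71.22 TPM. Both JG342 libraries lay above DMSO, replicate 1 more so. The log2 fold change was 0.67 ± 0.12 (limma adjusted p 0.00828; 0.0566 without DMSO replicate 2 and likewise without the filter on low values). UBA6 itself, looked up after the UBE2Z values were seen, was at 20.32 and 20.73 TPM in DMSO and 24.68 and 21.31 TPM in JG342 (0.15 ± 0.13, limma adjusted p 0.434). UBE2R2, which builds K48-linked chains with cullin ligases, went from 35.3 and 39.95 TPM to 50.84 and 49.09 TPM (0.40 ± 0.11, limma adjusted p 0.0385). Leaving out any of the 4 libraries removed the UBE2R2 call, with limma adjusted p from 0.0733 (without JG342 replicate 2) through 0.0860 (without DMSO replicate 2) and 0.114 (without JG342 replicate 1) to 0.212 (without DMSO replicate 1). It also missed the threshold after median scaling (limma adjusted p 0.0581), without the mean-variance trend (0.0791) and without the filter (0.0839). Its close relative CDC34 was at 90.3 and 77.6 TPM in DMSO and 92.88 and 89.55 TPM in JG342 (0.12 ± 0.11, limma adjusted p 0.465). The other K48-chain enzymes differed in sign. UBE2G1 had −0.26 ± 0.10 (limma adjusted p 0.110; 0.0223 with the replicate block) and UBE2K had 0.14 ± 0.12 (limma adjusted p 0.463).

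UBE2L3 fell, while RBCK1 and RNF19B, from the list of ligases it serves, rose. UBE2L3, also called UBCH7, passes ubiquitin to ligases of the RBR class, which form a thioester with ubiquitin themselves. It stood at 157.05 and 171.78 TPM in DMSO and at 114.68 and 124.65 TPM in JG342, without overlap. The log2 fold change was −0.45 ± 0.10 (limma adjusted p 0.0152), and the call was lost without DMSO replicate 2 or JG342 replicate 1 (limma adjusted p 0.121 and 0.0624), without the filter on low values (0.0568) and without the mean-variance trend (0.0582). The list held 10 RBR ligases and SHARPIN, an adaptor of the linear chain complex with no RBR domain. All 11 genes had fold changes above 0, as had 53.5% of all tested genes, with a median of 0.28 beside 0.03. In limma 3 passed as higher and none as lower, against 10.8% and 7.62% of all genes. With the replicate block 6 passed as higher and 0 as lower (19.2% and 15.7% of all genes). At an unadjusted p under 0.05 the counts were 7 and 0 (33.6% of all genes in either direction). RBCK1 (HOIL-1), part of the complex that makes linear ubiquitin chains, rose from 36.42 and 38.69 TPM to 86.58 and 95.79 TPM (1.26 ± 0.11, limma adjusted p 0.000227). RNF19B rose from 17.23 and 16.62 TPM to 30.29 and 24.49 TPM (0.66 ± 0.14, limma adjusted p 0.0129), and did not pass without DMSO replicate 1, DMSO replicate 2 or JG342 replicate 1 (limma adjusted p 0.0566, 0.0820 and 0.0554). Only 1 of the 11 genes passed when either DMSO library was left out. The retrocopy UBE2L5, whose transcript matches UBE2L3 at 96.8% identity over 30.6% of its length, was at 2.67 to 3.47 TPM in the 4 libraries, so reads may have been divided between them and both values are uncertain.

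Among the enzymes of K63-linked chains, the catalytic E2 fell and its partners did not pass the test. UBE2N (UBC13) builds these signalling chains only as a dimer with UBE2V1 or UBE2V2, which have an E2 fold but no catalytic cysteine. UBE2N stood at 134.98 and 152.57 TPM in DMSO and at 94.83 and 109.99 TPM in JG342. The treatments did not overlap, and its log2 fold change was −0.49 ± 0.11 (limma adjusted p 0.0188; 0.140 without DMSO replicate 2, 0.0805 without JG342 replicate 1, 0.0773 without the filter and 0.0642 without the trend). UBE2V1 was at 185.61 and 204.16 TPM in DMSO and at 195.24 and 198.35 TPM in JG342, with a 95% interval of its log2 fold change from −0.20 to 0.23. UBE2V2 was at 82.34 and 95.44 TPM against 81.26 and 81.68 TPM, with an interval from −0.36 to 0.12. The UBE2N transcript overlaps that of NUDT4 on the opposite strand over 47.4% of its length, and whether counting used strand is not given in the sources used here. NUDT4 was at 49.74 and 57.15 TPM in DMSO and 54.25 and 47.36 TPM in JG342. The UBE2V1 transcript shares 96.9% of its length with the readthrough gene TMEM189-UBE2V1, listed at 2.12 TPM in DMSO replicate 2 and at 0 in the other libraries. Of 8 ligase partners tested, 1 passed as lower and none as higher in limma, against 7.62% and 10.8% of all genes. With the block 0 were higher and 2 lower (19.2% and 15.7% of all genes). At an unadjusted p under 0.05 in limma 0 were higher and 3 lower, and the median was −0.17. The gene that passed in limma was TRAF2, a signalling ligase of TNF receptors. TRAF2 went from 36.64 and 33.98 TPM to 23.42 and 25.75 TPM (−0.51 ± 0.12, limma adjusted p 0.0196). It kept its call without JG342 replicate 2 but not without DMSO replicate 1, DMSO replicate 2 or JG342 replicate 1 (limma adjusted p 0.122, 0.0803 and 0.0727).

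The RAD6 enzymes UBE2A and UBE2B, closely related proteins that ubiquitinate histone H2B and PCNA, are described next. UBE2B was at 52.95 and 57.28 TPM in DMSO and at 72.31 and 67.12 TPM in JG342, without overlap (log2 fold change 0.33 ± 0.11, limma adjusted p 0.0573; 0.00476 with the replicate block). UBE2A was at 105.55 and 117.12 TPM against 118.74 and 108.76 TPM, and its treatments overlapped (0.03 ± 0.10, limma adjusted p 0.863). In limma 10.8% of all tested genes passed as higher and 7.62% as lower. Of 9 ligase partners, only RAD18, the PCNA ligase, passed, going from 20.84 and 23.55 TPM to 14.95 and 14.71 TPM (−0.55 ± 0.13, limma adjusted p 0.0197; 0.0578 without DMSO replicate 1 and 0.154 without DMSO replicate 2).

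None of the 7 broad-range E2s passed in limma, none had an unadjusted p under 0.05, and 1 passed with the replicate block. The UBE2D enzymes work with a large share of known ligases. UBE2D3, the highest of them, was at 191.94 and 208.84 TPM in DMSO and at 204.48 and 200.87 TPM in JG342, with a 95% interval of its fold change from −0.19 to 0.23. The 4 UBE2D genes together summed to 375 and 395 TPM in DMSO and to 386 TPM in each JG342 library. UBE2E1 was at 249.76 and 268.65 TPM against 242.54 and 250.28 TPM, also overlapping (−0.07 ± 0.09, limma adjusted p 0.622). UBE2E3 was at 139.23 and 133.46 TPM in DMSO and at 129.75 and 100.67 TPM in JG342, where replicate 2 was the low library (−0.25 ± 0.13, limma adjusted p 0.198; 0.0186 with the block). Without JG342 replicate 1 UBE2E3 had −0.43 (limma adjusted p 0.0421), and without JG342 replicate 2 it had −0.07.

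No E2 of endoplasmic reticulum degradation passed the test, while SEL1L, an adaptor of a ligase they serve, rose. None of the 3 E2s passed in limma, 0 had an unadjusted p under 0.05, and 1 passed with the replicate block. UBE2J1 was at 461.41 and 432.98 TPM after JG342, both above its DMSO values, a log2 fold change of 0.07 ± 0.09 with a 95% interval from −0.13 to 0.27. UBE2G2, the soluble E2 of this pathway, was at 196.12 and 178 TPM in DMSO and at 167.4 and 151.81 TPM in JG342, without overlap (−0.23 ± 0.10, limma adjusted p 0.149; 0.0276 with the block). The 13 genes for the ligases and their adaptors had a median of 0.08. With the block 5 passed as higher and 2 as lower, against 19.2% and 15.7% of all genes. In limma 2 passed as higher and 1 as lower, against 10.8% and 7.62% of all genes. The higher count was 1 without DMSO replicate 1, DMSO replicate 2 or JG342 replicate 1. SEL1L, which holds the HRD1 ligase complex together, rose from 85.16 and 79.53 TPM to 197.3 and 145.46 TPM (1.03 ± 0.14, limma adjusted p 0.00231). DERL3 fell from 219.83 and 267.54 TPM to 163.75 and 184.49 TPM (−0.48 ± 0.12, limma adjusted p 0.0240; 0.182 without DMSO replicate 2 and 0.0889 without JG342 replicate 1).

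Among the E2s of ubiquitin-like proteins, UBE2M, UBE2F and UBE2L6 did not pass in limma, none at an unadjusted p under 0.05 and none with the replicate block. UBE2M, which carries NEDD8 to cullins, stood at 218.98 and 241.92 TPM in DMSO and at 222.3 and 219.47 TPM in JG342, with a 95% interval of its log2 fold change from −0.27 to 0.15. The interferon-inducible ISG15 enzyme UBE2L6 stood at 100.01 and 115.79 TPM against 109.44 and 112.35 TPM, with an interval from −0.20 to 0.28. Both overlapped between treatments. Of 12 genes for SUMO ligases and proteases, 5 passed as higher and none as lower in limma, against 10.8% and 7.62% of all genes. Their median was 0.06, with 6 genes above 0 and 6 below. With the block 5 were higher and 1 lower (19.2% and 15.7% of all genes), and 1 was lower at an unadjusted p under 0.05. With the block and median scaling 2 were lower. SENP2, a SUMO protease, rose from 40.87 and 46.79 TPM to 91.03 and 80.38 TPM (0.95 ± 0.12, limma adjusted p 0.00141). The count of 5 was 2 without DMSO replicate 1 and 3 without DMSO replicate 2.

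The remaining members did not pass. UBE2H, the E2 of the CTLH ligase, was at 118.79 and 143.28 TPM in DMSO and at 153.05 and 143.16 TPM in JG342, so that DMSO replicate 1 was the low library (0.18 ± 0.11, limma adjusted p 0.299). UBE2O, a large enzyme with E2 and E3 activity, was at 26.49 and 28.03 TPM against 23.09 and 24.82 TPM (−0.18 ± 0.12, limma adjusted p 0.321). UBE2Q2L was at 1.78, 0.47, 3.48 and 0 TPM in DMSO replicates 1 and 2 and JG342 replicates 1 and 2, and its sequence matches 6 other annotated genes, so its value is uncertain. The other members that did not pass were UBE2D1, UBE2D2, UBE2D4, UBE2E2, UBE2F, UBE2J2 and UBE2W, with log2 fold changes from −0.11 (UBE2D1) to 0.24 (UBE2D4). Near-identical copies that could share reads were also found for UBE2D3 (UBE2D3P1, 97.2% identity over 73% of the transcript), UBE2M (UBE2MP1, 97.1% over 36.5%), UBE2E3, UBE2F and UBE2W.

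Differences were also taken between same-numbered libraries. For UBE2QL1 the JG342 minus DMSO difference of log2(TPM + 1) was 1.15 between the replicate 1 libraries and 1.12 between the replicate 2 libraries, and for UBE2T it was −0.73 and −0.67. UBE2L3 had −0.45 and −0.46, and UBE2N −0.50 and −0.47. The pairs differed more for UBE2C (−0.67 and −0.34), UBE2Z (0.80 and 0.54) and UBE2R2 (0.51 and 0.29). Members past the threshold were selected for differences that are large against the spread within treatments, so the likeness of their pairs is no separate evidence. Over the 35 tested members the sign was the same in both pairs for 26, or 74.3%, against 75.5% of all tested genes. DMSO replicate 2 was above DMSO replicate 1 for 24 of the members, and JG342 replicate 2 above JG342 replicate 1 for 15.

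**Figure D3:**
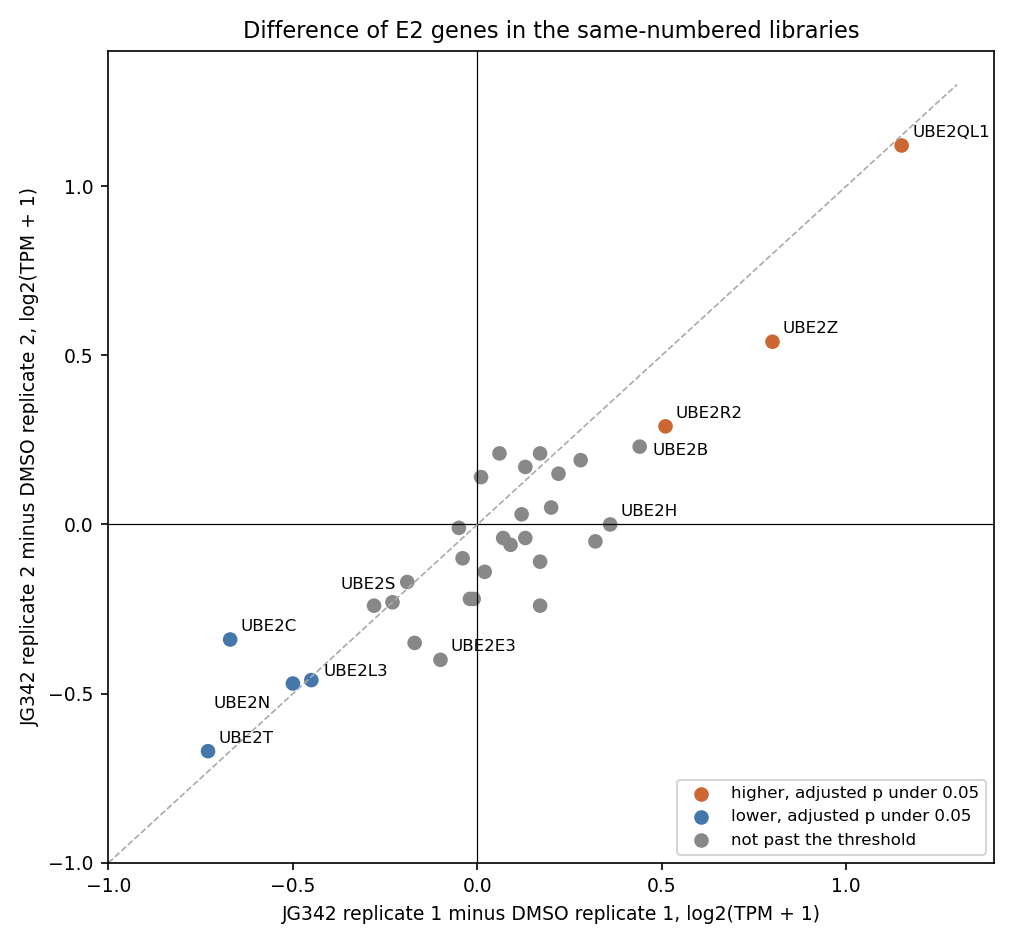
JG342 minus DMSO difference of log2(TPM + 1) in the replicate 1 libraries (x axis) and the replicate 2 libraries (y axis) for the fitted E2 genes other than UBE2Q2L and 1 more; the dashed line marks equal differences. The 7 coloured genes lie in the lower left or upper right of the crossed zero lines, with UBE2T at −0.73 and −0.67 and UBE2QL1 at 1.15 and 1.12.

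Ratios between members within a library do not depend on how libraries are scaled. The 12 ratios were chosen after the values were seen, 11 of them did not overlap between treatments, and with 2 libraries against 2 an exact permutation test cannot give a two-sided p below 0.333. UBE2N over UBE2V1 was 0.727 and 0.747 in DMSO and 0.486 and 0.555 in JG342. UBE2B over UBE2A went from 0.502 and 0.489 to 0.609 and 0.617, and UBE2L3 over UBE2L6 from 1.57 and 1.48 to 1.05 and 1.11. UBE2T over UBE2S went from 0.529 and 0.564 to 0.386 and 0.419. These ratios are descriptions, since the choice of pairs favours separation, and differences in change between members were not tested. UBE2R2 over CDC34 was 0.391 and 0.515 in DMSO, a spread that reached close to the 0.547 and 0.548 of JG342.

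**Figure D4:**
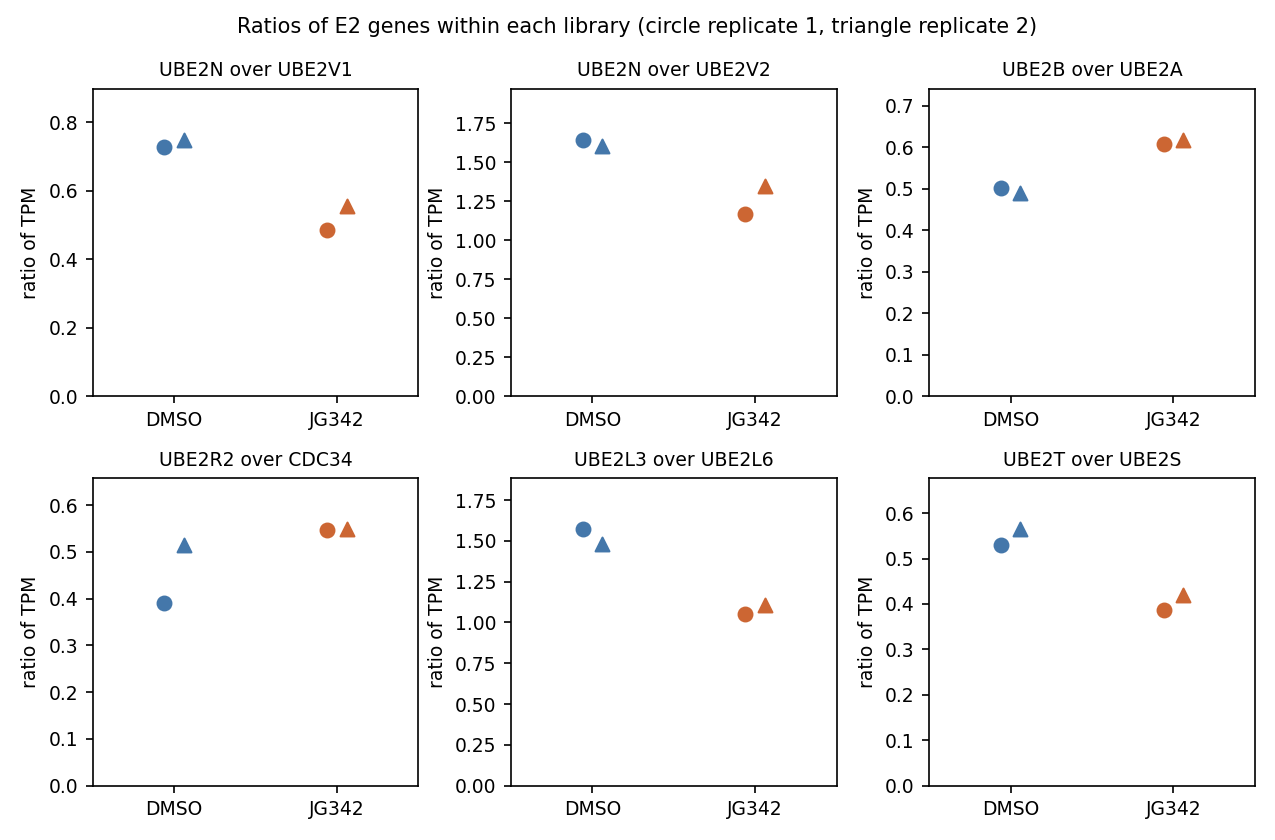
TPM ratio of 6 pairs of E2 genes in each library (y axes start at 0; circles replicate 1, triangles replicate 2). UBE2N over UBE2V1 lies at 0.727 and 0.747 in DMSO and at 0.486 and 0.555 in JG342, and UBE2B over UBE2A lies higher in both JG342 libraries.

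Upstream in the relay, neither ubiquitin genes nor E1 enzymes passed the test. The 4 ubiquitin genes summed to 3455 and 3716 TPM in DMSO and to 3323 and 3554 TPM in JG342, with a median log2 fold change of −0.06, and none had an unadjusted p under 0.05 in limma. Of the 10 E1 genes none passed, and 2 were lower at an unadjusted p under 0.05 in limma. With the replicate block 3 were lower, against 15.7% of all genes. UBA1, the main E1 of ubiquitin, was at 168.55 and 185.28 TPM against 145.67 and 155.54 TPM (−0.23 ± 0.10, limma adjusted p 0.135; 0.0271 with the block). It is named here after its values were seen. The 8 genes with an E2 fold but another name, CDC34 among them, gave no call either. At an unadjusted p under 0.05 in limma 3 were higher, and 2 were higher with the block (19.2% of all genes). Among 14 tested genes of ubiquitin-like proteins, 3 passed as higher and 1 as lower, against 10.8% and 7.62% of all genes. Without DMSO replicate 2 the higher count was 1. The lower count was 2 with the block, 4 with the block and median scaling, and 0 with a pseudocount of 0.1, after quantile normalization, without the filter or the trend, and without DMSO replicate 1, DMSO replicate 2 or JG342 replicate 1. MAP1LC3B (LC3B), which marks autophagosomes, rose from 51.2 and 55.57 TPM to 113.04 and 118.99 TPM (1.11 ± 0.10, limma adjusted p 0.000316). UFM1 rose from 63.73 and 60.79 TPM to 102.21 and 89.53 TPM (0.61 ± 0.11, limma adjusted p 0.00656; 0.0519 without DMSO replicate 2).

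Among 16 genes of the cullin ligase core, 2 passed as higher and none as lower in limma, against 10.8% and 7.62% of all genes. At an unadjusted p under 0.05 in limma 2 were lower, and the median was −0.11. With the replicate block 2 were higher and 2 lower, against 19.2% and 15.7% of all genes. The balance turned with the scaling, to 1 higher and 1 lower after median scaling and 2 higher and 6 lower with the block and median scaling. CUL7 rose from 10.32 and 10.45 TPM to 17.75 and 17.18 TPM (0.70 ± 0.13, limma adjusted p 0.00846), with limma adjusted p of 0.0503 without DMSO replicate 1 and 0.0552 without DMSO replicate 2. CUL9 was at 9.91 and 9.84 TPM against 13.67 and 13.92 TPM (0.44 ± 0.13, limma adjusted p 0.0496), and its call was lost when any of the 4 libraries was left out (limma adjusted p 0.108 to 0.201). The 3 tested genes for ISG15 ligases and proteases gave no call, with 1 lower at an unadjusted p under 0.05 in limma and 1 with the block.

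**Figure D5:**
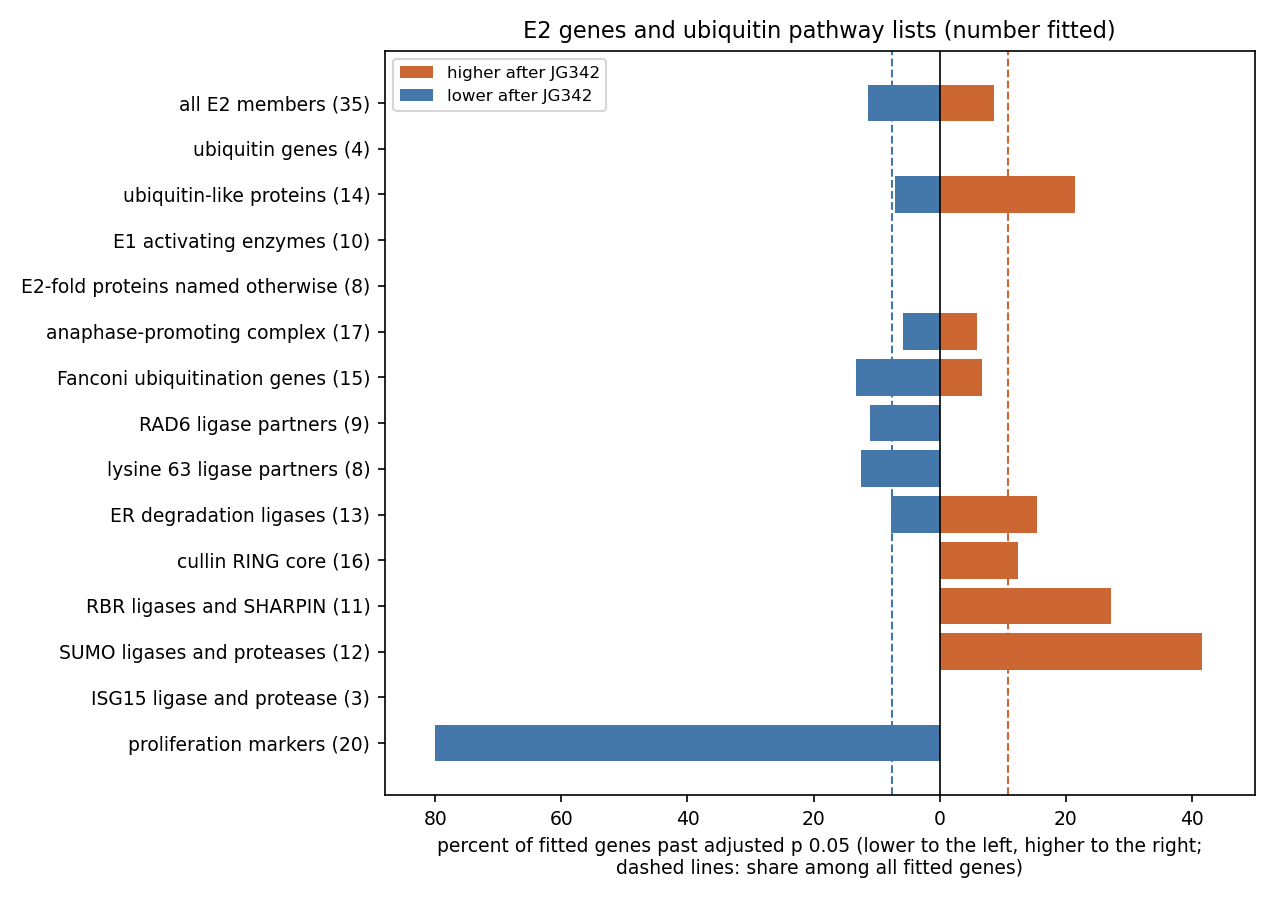
Share of tested genes past an adjusted p of 0.05 in the E2 family, the ubiquitin pathway lists and the proliferation markers (lower to the left, higher to the right, number tested in parentheses); dashed lines give the share among all tested genes, 7.62% lower and 10.8% higher. Ubiquitin genes, E1 enzymes, E2-fold proteins named otherwise and ISG15 genes have no bar, and 16 of 20 proliferation markers are lower.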

How the data were processed

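Transcripts were measured by RNA sequencing of total RNA in 4 libraries, 2 per treatment. The authors deposited 1 TPM value per gene and library; the unit was inferred from library totals of 994463 to 994718. Per the submitters' processing notes, HISAT2 2.0.4, Bowtie2 2.2.5 and RSEM 1.2.12 were used; build, annotation, strand setting and read depth are not given in the sources used here, so no counting intervals are possible. Columns were matched to samples by title. Symbols of 23 genes that had become dates were restored from accessions.

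Values were transformed to log2(TPM + 1), which understates changes of low genes. The 12042 genes averaging 1 TPM or more were fitted with limma 3.58.1 in R 4.3.3 (trended eBayes, treatment only, 6.89 prior degrees of freedom), two-sided, with Benjamini-Hochberg adjustment over all fitted genes and a threshold of 0.05. The script was tested on simulated data. The pairing check compared same-numbered libraries, whose descriptions share a prefix: their deviations from treatment means correlated across genes with Pearson's r of 0.275 (Spearman's rho 0.304), so block values are given for members and list counts where they change a call or count. In the block fit the prior degrees of freedom were infinite, so the error came wholly from the trend over all genes. With the block and median scaling they were 7.49. The members, lists and roles were chosen with earlier results of these data known. Named genes were all members past the threshold, UBE2C, UBE2S and UBE2T, the 5 highest members, textbook members of each role, and, in each list, the 2 genes with the smallest p among those past the threshold; UBA1, UBA6, FANCL, SHARPIN and further cell type markers were named after their values were seen. Copies were searched with blastn 2.17.0 in GENCODE transcripts (identity of at least 95% over at least 20%). Promoters are from RefSeq GRCh38.p14. Alternatives covered pseudocount, filter, scaling, trend, block, threshold and each library left out. Values of 1 member and 1 other gene are not reported here; both stay in the fits and counts.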

Additional observations from a re-analysis of the deposited data

How the results depend on the processing

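Each treatment has 2 libraries, so most of the error estimate is borrowed from other genes, and TPM carries no depth, so the precision of low members such as UBE2Q2L and UBE2NL is unknown. UBE2QL1 and UBE2T kept their calls under all 13 alternatives. For UBE2T the call was narrow without the filter on low values (limma adjusted p 0.0476). The UBE2T call was as narrow without DMSO replicate 2, where its fold change was −0.61. With 1 library left out its fold change ran from −0.82 to −0.58. UBE2Z lost its call under 2, UBE2L3 and UBE2N under 5 each, and UBE2C and UBE2R2 under 8 each; the cause was not tested.

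Of all genes, 1304 were higher and 917 lower. These counts were 533 and 295 without the filter on low values and 525 and 263 at an adjusted p threshold of 0.01. They were 2316 and 1891 with the replicate block, and 1675 and 2310 with the block and median scaling. Without the mean-variance trend 526 were lower. Higher genes made up 58.7% of calls, and 44.6% after median scaling, which moved the median fold change of all genes from 0.03 to −0.03. With 1 library left out the counts ran from 575 to 1107 and from 192 to 718; a treatment left with 1 library is assumed to vary like the other.

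For the E2 members the counts of 3 higher and 4 lower became 1 and 1 without the filter on low values. The lower count was 1 without the trend or at the 0.01 threshold, and 8 with the replicate block, alone or with median scaling. Leaving out 1 library gave 1 to 2 higher and 1 to 4 lower members. Their median fold change stayed between −0.05 and 0.03 in all settings that refit it.

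UBE2C had −0.51 in the fits without a filter and without the trend (limma adjusted p 0.136 and 0.0993), −0.57 after median scaling (0.0516), −0.47 after quantile normalization (0.0732), and −0.51 at the 0.01 threshold. With 1 library left out it ran from −0.72 to −0.29. UBE2S had −0.26 with the replicate block and −0.33 with the block and median scaling, both past the threshold (limma adjusted p 0.00559 and 0.0157), and ran from −0.33 to −0.20 with 1 library left out.

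Members that did not pass changed sign as follows. After median scaling, with or without the replicate block, UBE2A had −0.04, UBE2D3 −0.05, UBE2L6 −0.03 and UBE2V1 −0.05. After quantile normalization UBE2D2 had 0.01 and UBE2Q2L −0.03, and with a pseudocount of 0.1 UBE2Q2L had −0.79. With 1 library left out the ranges were −0.04 to 0.11 (UBE2A), −0.24 to 0.01 (UBE2D1), −0.08 to 0.02 (UBE2D2), −0.04 to 0.08 (UBE2D3), −0.18 to 0.11 (UBE2L5), −0.06 to 0.15 (UBE2L6), −0.13 to 0.01 (UBE2M), −1.02 to 1.15 (UBE2Q2L), −0.05 to 0.08 (UBE2V1) and −0.08 to 0.35 (UBE2W).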
